A study of Mus musculus with 12 samples.

Results

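The genes described here are 9 feedback inhibitors of the MAP kinase pathway: the dual-specificity phosphatase genes Dusp1, Dusp2, Dusp4, Dusp5 and Dusp6, the Sprouty genes Spry1 and Spry2, and the Spred genes Spred1 and Spred2. They were chosen by name, for what their proteins do, and not by a cutoff on a measured value. Earlier results of these data were known when they were chosen. Each was read by 1 probe set, so that 9 of the 19505 named genes, and 9 of 22206 gene probe sets, are covered. RNA levels were measured on 12 microarrays of mouse HoxB8 cells, an immature myeloid line held in the progenitor state by an estrogen-dependent HoxB8 protein, 24 hours after estrogen was removed. All cells carried a pair of MSCV retroviral vectors, 1 marked with GFP and 1 with mCherry, and were sorted for both colours. The 4 groups of 3 arrays were CSF3R_T618I+CEBPA_V314VW (CEBPA_V314VW on the GFP vector and CSF3R_T618I on the mCherry vector, called the combination below), CSF3R_T618I (with the GFP vector empty), CEBPA_V314VW (with the mCherry vector empty) and Empty Vector (both vectors empty). CSF3R_T618I is an activated form of the G-CSF receptor, and CEBPA_V314VW is a mutant of C/EBPα, a transcription factor needed for granulocytes to form. Expression from the retroviral promoter limits the groups as a model of a mutated gene at its own locus.

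Receptors for cytokines and growth factors activate Ras, which starts a kinase chain from RAF through MEK to ERK. Active ERK induces transcription of its own inhibitors: DUSP phosphatases remove the activating phosphates from ERK and, for some family members, from the stress kinases p38 and JNK, while Sprouty and Spred proteins hold back signalling at the level of Ras and RAF. Levels of these transcripts are for that reason often read as a trace of ERK output in myeloid cells.

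Promoter sequence was at hand in RefSeq (build GRCm38.p6) for 8 of the 9 genes. Those of Dusp6 and Dusp1, whose transcripts differed most between the groups, are shown with that of Dusp5, which held the serum response motifs. Each line gives the 250 bases before the start site, 5′ to 3′ on the gene's strand, at chr10:99262981-99263230 (plus strand), chr17:26508473-26508722 (minus strand) and chr19:53528895-53529144 (plus strand), with matches to the searched motifs in capitals.
Dusp6: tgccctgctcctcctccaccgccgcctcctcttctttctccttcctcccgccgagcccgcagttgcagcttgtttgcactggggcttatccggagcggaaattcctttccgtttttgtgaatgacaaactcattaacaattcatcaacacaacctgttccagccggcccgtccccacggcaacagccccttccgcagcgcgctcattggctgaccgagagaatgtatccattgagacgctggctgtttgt
Dusp1: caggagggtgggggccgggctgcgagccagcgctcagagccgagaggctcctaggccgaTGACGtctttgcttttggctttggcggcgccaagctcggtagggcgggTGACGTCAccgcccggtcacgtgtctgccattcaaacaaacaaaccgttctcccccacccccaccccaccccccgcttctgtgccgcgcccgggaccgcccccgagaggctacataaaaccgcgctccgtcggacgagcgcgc
Dusp5: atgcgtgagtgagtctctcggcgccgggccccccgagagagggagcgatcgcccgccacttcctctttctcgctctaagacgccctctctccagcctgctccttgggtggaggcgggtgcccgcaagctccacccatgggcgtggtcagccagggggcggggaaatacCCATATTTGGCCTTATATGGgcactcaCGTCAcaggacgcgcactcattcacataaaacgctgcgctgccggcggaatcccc
The search covered both strands from 250 bases before to 50 bases after the start for STAT (TTCNNNGAA), C/EBP (TTGCNNAA), the cyclic AMP response element CRE (TGACGTCA) and its shorter form (TGACG), ETS (CCGGAAG) and the SRF CArG box. Dusp1 held 1 full CRE at position -143 from the start, in which a pair of the shorter forms overlap, and a further short form at -191. The full CRE is found in 1.79% of 32841 RefSeq promoters of that length and the short form in 20.8%. Dusp5 held 2 adjoining CArG boxes at -82 and -72, a motif found in 1.63% of promoters, and a short CRE at -55. Dusp2 and Spred2 held 1 short CRE each, and the windows of Dusp6, Spry1, Spry2 and Spred1 held none of the letters searched. STAT, C/EBP and ETS matches, found in 8.3%, 10.8% and 8.86% of promoters, were in none of the 8 windows. A match is a description of letters and not a measured site.

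The median log2 value of an array was 6.59 to 6.76, and r within groups was 0.987 to 0.995. Replicate C of CSF3R_T618I and replicate C of the combination stood apart, with quality weights of 0.325 and 0.486 and the highest means of the background control probe sets, 5.25 and 5.27. Precision is limited by having 3 arrays a group. The labels call the 3 arrays of a group biological replicates without naming separate cultures, so the p-values measure the spread between these samples. The progenitor genes Kit, Cd34, Flt3, Myb, Meis1 and Gata2 and the 10 neutrophil genes examined, among them Mpo and Elane, which encode primary granule proteins, were above background on all arrays, except Flt3 on 1 array of the combination.

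Csf3r and Cebpa, the mouse genes of the same names as those on the vectors, were read by probe sets for which it is not known whether they detect the vector transcripts. Csf3r read 11.80, 11.67 and 11.70 in the combination and 12.08, 12.02 and 12.16 in CSF3R_T618I, against 10.93, 10.94 and 10.88 in CEBPA_V314VW and 11.31, 11.36 and 11.49 in Empty Vector. Cebpa read 12.17, 12.07 and 12.40 in the combination and 11.996, 12.14 and 11.90 in CEBPA_V314VW, against 10.59, 10.82 and 10.73 in CSF3R_T618I and 10.98, 11.04 and 11.07 in Empty Vector. Each was higher on every array labelled with its mutant form than on any array labelled without it. For the arrays with CSF3R_T618I, 3.55% of all probe sets were higher in this way. Csf3r in the combination against Empty Vector did not reach an adjusted p below 0.05 in limma.

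All 9 inhibitor genes were above the background controls on all 12 arrays. In the fit of limma with Benjamini-Hochberg adjustment over all 22206 gene probe sets, a gene was called at an adjusted p below 0.05. Dusp1 rose and Dusp6 fell in CSF3R_T618I against Empty Vector, so that 2 of 9 genes were called where 6.37% of all probe sets were (3.74% higher, 2.63% lower). In CEBPA_V314VW against Empty Vector 1 of 9 was called, a rise of Dusp6, beside 1.97% of all probe sets (1.02% higher, 0.95% lower). In the combination against Empty Vector Dusp6 and Dusp2 fell and none rose, 2 of 9 beside 5.45% (3.16% higher, 2.3% lower).

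The combination differed from CSF3R_T618I in 1 of 9 genes, a lower Dusp1, beside 1.6% of all probe sets (0.748% higher, 0.851% lower). It differed from CEBPA_V314VW in 3 of 9, with Dusp1 and Spry2 higher and Dusp6 lower, beside 6.65% (3.56% higher, 3.08% lower). CSF3R_T618I and CEBPA_V314VW differed in 4 of 9, with Dusp1 and Spry2 higher and Dusp6 and Spry1 lower in CSF3R_T618I, beside 10.7% (5.42% higher, 5.27% lower). These comparisons share arrays, so their counts are not independent of each other. Dusp4, Dusp5, Spred1 and Spred2 were called in none of them. The median log2 change over the 9 genes was -0.27 in CSF3R_T618I against Empty Vector (-0.01 over all probe sets), 0.06 in CEBPA_V314VW against Empty Vector (-0.002) and -0.14 in the combination against Empty Vector (-0.03).

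With a limit of at least 2-fold added to the adjusted p, 0 of the 9 genes passed in the combination against Empty Vector (1.72% of all probe sets), 1 in CSF3R_T618I against Empty Vector (Dusp1, 1.71%) and 0 in CEBPA_V314VW against Empty Vector (0.608%). None passed that limit between the combination and CSF3R_T618I (0.509%) or in the test of the interaction, the difference between the CSF3R_T618I effects with and without CEBPA_V314VW (0.257%). Dusp6 passed it in the combination against CEBPA_V314VW (1.97%), and Dusp1 and Dusp6 in CSF3R_T618I against CEBPA_V314VW (2.66%).

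Dusp6 encodes the cytoplasmic phosphatase that acts on ERK and hardly on other MAP kinases, and its group means had the widest range of the 9, 8.02 in the combination to 9.63 in CEBPA_V314VW. Its log2 values on replicates A, B and C were 7.99, 8.17 and 7.89 in the combination and 8.14, 8.24 and 8.08 in CSF3R_T618I, against 9.81, 9.48 and 9.61 in CEBPA_V314VW and 9.01, 8.96 and 9.08 in Empty Vector. All 6 arrays with CSF3R_T618I lay below all 6 without it, and every CEBPA_V314VW array lay above every Empty Vector array, while the combination and CSF3R_T618I overlapped. Such a gap between 6 arrays and 6 was found in 7.53% of all probe sets, 3.99% with the CSF3R_T618I arrays lower and 3.55% with them higher, and among the 9 genes in Dusp6 and Dusp1.

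Dusp6 fell by 0.86 ± 0.12 on the log2 scale (SE) in CSF3R_T618I against Empty Vector, a level 1.82-fold lower (n = 3 against 3, adjusted p = 0.000361). It fell by 1.00 ± 0.12 in the combination against Empty Vector (adjusted p = 0.000117). At 1.996-fold lower, that change fell just short of the 2-fold limit. CEBPA_V314VW alone went the other way, with Dusp6 1.54-fold higher than in Empty Vector (0.62 ± 0.12, adjusted p = 0.0113). This rise did not pass without Empty Vector replicate A (adjusted p = 0.0558), without Empty Vector replicate B (0.066) or without CEBPA_V314VW replicate A (0.0679), while the change stayed between 0.53 and 0.70 in all 22 alternatives of scaling, model or arrays.

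Against CEBPA_V314VW, Dusp6 was 3.07-fold lower in the combination (-1.62 ± 0.12, adjusted p = 1.39e-06) and 2.79-fold lower in CSF3R_T618I (-1.48 ± 0.12, adjusted p = 1.67e-06). Between the combination and CSF3R_T618I the difference was -0.13, with a 95% interval of -0.38 to 0.12 (adjusted p = 0.802). The CSF3R_T618I effect on Dusp6 was thus -1.62 with CEBPA_V314VW and -0.86 without it. The test of the difference of these effects, the interaction, gave -0.75 ± 0.16 and an adjusted p of 0.106. With array quality weights the interaction passed (-0.86, adjusted p = 0.016), as it did with a trended, robust variance estimate (adjusted p = 0.0243).

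Dusp1 encodes MKP-1, a nuclear phosphatase of p38, JNK and ERK that is induced within minutes by growth factors and stress. Its log2 values were 8.54, 8.49 and 8.47 in the combination and 9.38, 9.27 and 9.25 in CSF3R_T618I, against 7.84, 7.42 and 7.93 in CEBPA_V314VW and 8.21, 7.76 and 7.99 in Empty Vector. The CSF3R_T618I arrays were highest, those of the combination lay between them and the rest with no overlap, and CEBPA_V314VW overlapped with Empty Vector. Dusp1 and Dusp6 thus ran in opposite directions in CSF3R_T618I.

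In CSF3R_T618I, Dusp1 was 2.48-fold higher than in Empty Vector (1.31 ± 0.14, n = 3 against 3, adjusted p = 6.97e-05) and 2.98-fold higher than in CEBPA_V314VW (1.57 ± 0.14, adjusted p = 8.32e-06). The combination was 1.70-fold above CEBPA_V314VW (0.77 ± 0.14, adjusted p = 0.00489). Against Empty Vector its difference was 0.51 (95% interval 0.19 to 0.82) with an adjusted p of 0.0666, and 7 of 22 alternatives brought it below 0.05, among them without Empty Vector replicate A (0.62, adjusted p = 0.0468) and without CEBPA_V314VW replicate B (0.51, 0.0284).

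Dusp1 fell to 8.50 ± 0.04 in the combination, against 9.30 ± 0.07 in CSF3R_T618I (SD, n = 3 each), a change of -0.80 ± 0.14 (SE, adjusted p = 0.0124). This call was lost without CSF3R_T618I replicate A (adjusted p = 0.0602), without replicate B of the combination (0.051) and without both arrays that stood apart (0.0904), with the change at -0.76, -0.80 and -0.81. The interaction for Dusp1 was -0.54 ± 0.20 (adjusted p = 0.688). CEBPA_V314VW alone differed from Empty Vector by -0.26, with an interval of -0.58 to 0.05 (adjusted p = 0.672).

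**Figure D1:**
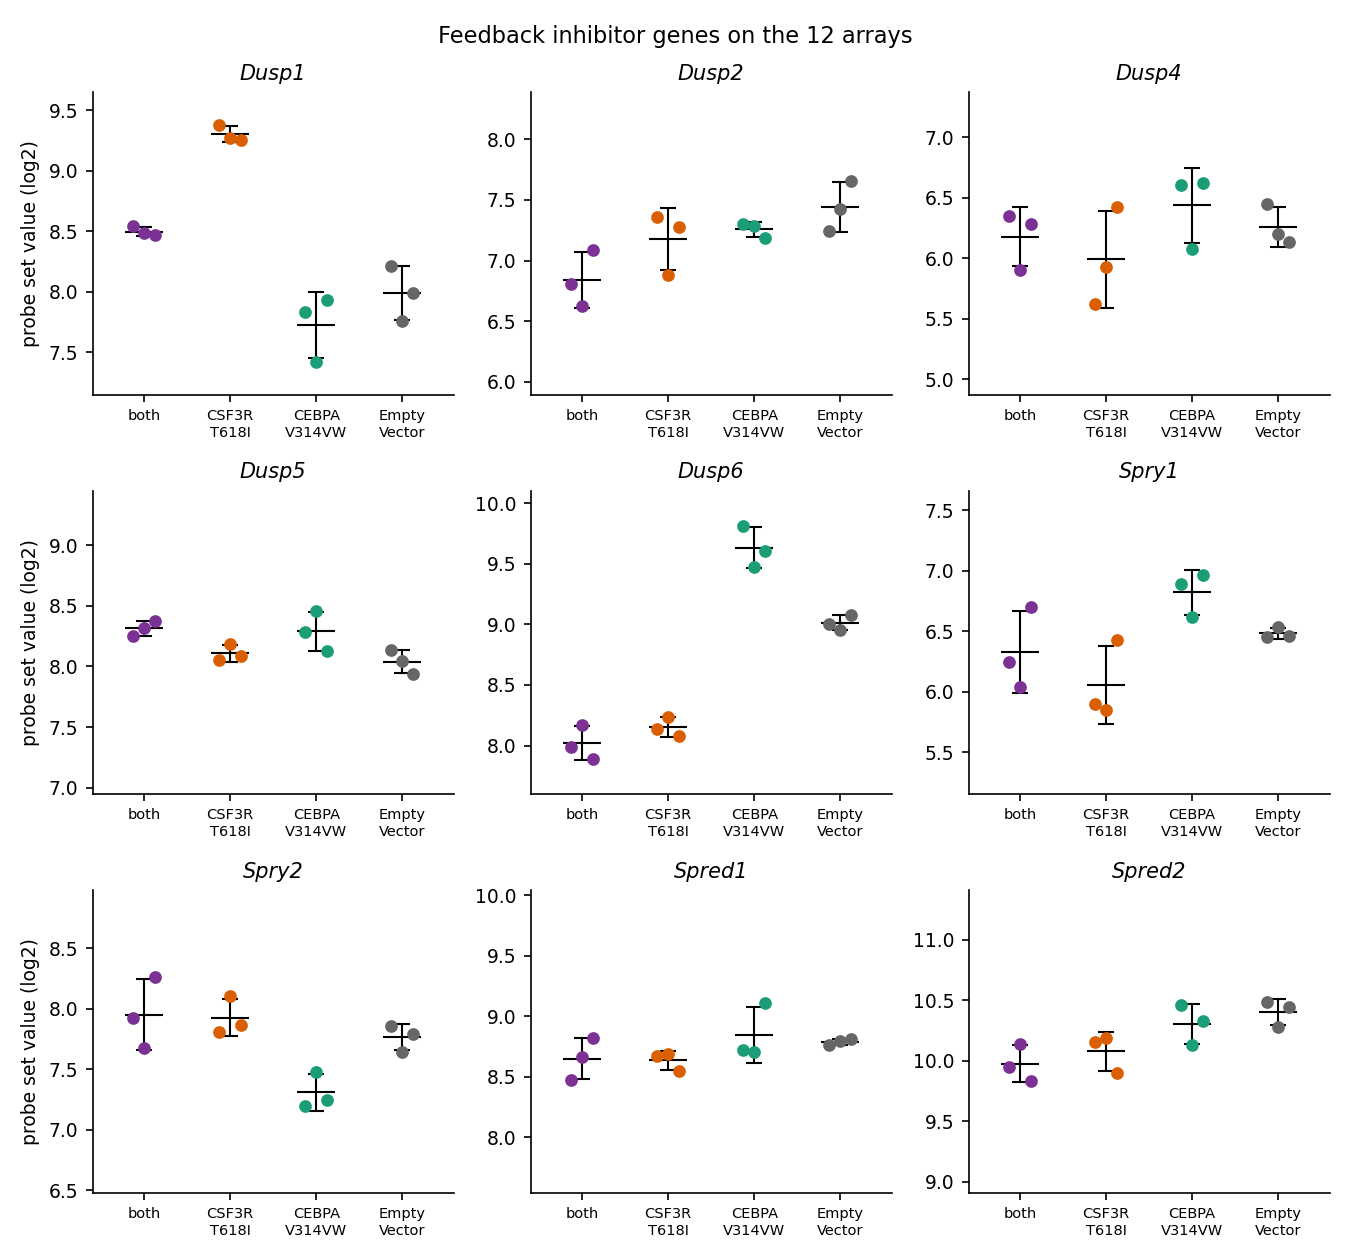
Log2 probe set values of the 9 feedback inhibitor genes (vertical axis, same span of 2.5 log2 units in each panel) on the 12 arrays in 4 groups ("both" is the combination). Points are arrays, and bars are the mean ± SD of 3. Dusp6 lies between 7.89 and 8.24 on the 6 arrays with CSF3R_T618I and between 8.96 and 9.81 on the 6 without, and Dusp1 is highest in CSF3R_T618I.

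Sprouty proteins restrain receptor signalling towards Ras. Spry1 read 6.25, 6.04 and 6.70 in the combination and 5.90, 5.85 and 6.43 in CSF3R_T618I, against 6.89, 6.61 and 6.97 in CEBPA_V314VW and 6.45, 6.53 and 6.46 in Empty Vector. Replicate C was the highest array of the combination and of CSF3R_T618I, and these are the arrays that stood apart. Spry1 was 1.70-fold lower in CSF3R_T618I than in CEBPA_V314VW (-0.76 ± 0.18, n = 3 against 3, adjusted p = 0.0168), with no overlap of the groups, which 25.9% of all probe sets also showed there. That call was lost without CSF3R_T618I replicate A or B (adjusted p = 0.065 and 0.0739) and without CEBPA_V314VW replicate A or C (0.0636 and 0.074). Without both arrays that stood apart, Spry1 also passed in CSF3R_T618I against Empty Vector (-0.61, adjusted p = 0.0167) and in the combination against CEBPA_V314VW (-0.68, adjusted p = 0.00774), where the values over all 12 arrays were -0.42 (adjusted p = 0.256) and -0.50 (adjusted p = 0.161). Leaving out replicate C of the combination alone sufficed for the second (-0.68, adjusted p = 0.0435).

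Spry2 read 7.92, 7.67 and 8.26 in the combination and 7.81, 8.10 and 7.87 in CSF3R_T618I, against 7.20, 7.48 and 7.25 in CEBPA_V314VW and 7.85, 7.64 and 7.79 in Empty Vector. The CEBPA_V314VW arrays were the lowest and overlapped with no other group. Spry2 was 1.56-fold higher in the combination than in CEBPA_V314VW (0.64 ± 0.15, n = 3 against 3, adjusted p = 0.0193) and 1.54-fold higher in CSF3R_T618I than in CEBPA_V314VW (0.62 ± 0.15, adjusted p = 0.0173). CEBPA_V314VW stood at -0.46 ± 0.15 from Empty Vector, which did not pass (adjusted p = 0.235, unadjusted p = 0.0099).

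The higher Spry2 in the combination was lost in 7 of 22 alternatives, among them without replicate C of the combination (0.49, adjusted p = 0.0711), without its replicate A (0.66, adjusted p = 0.0558), and without CEBPA_V314VW replicate A (0.59, 0.0886) or C (0.61, 0.0756). The higher Spry2 in CSF3R_T618I was lost without CSF3R_T618I replicate B (0.53, adjusted p = 0.0775) and without CEBPA_V314VW replicate A (0.56, 0.0764) or C (0.59, 0.0671). Spry1 and Spry2 therefore differed in opposite directions between CSF3R_T618I and CEBPA_V314VW.

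Dusp2 encodes PAC-1, a nuclear phosphatase of activated blood cells. It read 6.80, 6.63 and 7.09 in the combination, 7.36, 6.88 and 7.28 in CSF3R_T618I and 7.30, 7.28 and 7.19 in CEBPA_V314VW, against 7.24, 7.42 and 7.66 in Empty Vector. The combination lay below Empty Vector on every array, by -0.60 ± 0.16 (1.52-fold lower, n = 3 against 3, adjusted p = 0.0437). The call sat close to the threshold and was lost in 10 of 22 alternatives. Without Empty Vector replicate B or C the adjusted p was 0.12 and 0.173, without replicate A or B of the combination it was 0.134 and 0.146, and without CEBPA_V314VW replicate A, B or C, which change the shared spread, it was 0.0637, 0.0592 and 0.0593.

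Dusp4 encodes MKP-2, a nuclear phosphatase of ERK and JNK. It read 6.35, 5.90 and 6.29 in the combination, 5.62, 5.93 and 6.42 in CSF3R_T618I and 6.61, 6.08 and 6.62 in CEBPA_V314VW, against 6.45, 6.20 and 6.14 in Empty Vector. All 4 groups overlapped, and the SD of CSF3R_T618I was 0.40. The widest of its differences, CSF3R_T618I minus CEBPA_V314VW, was -0.45 with a 95% interval of -0.90 to 0.01 (adjusted p = 0.245). It passed with array quality weights (-0.60, adjusted p = 0.0171) and in no other alternative.

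Dusp5 encodes a nuclear phosphatase that acts on ERK. It read 8.25, 8.32 and 8.37 in the combination, 8.06, 8.19 and 8.08 in CSF3R_T618I and 8.28, 8.46 and 8.13 in CEBPA_V314VW, against 8.13, 8.04 and 7.94 in Empty Vector. The combination lay above Empty Vector on every array, while CSF3R_T618I overlapped with Empty Vector. The differences from Empty Vector were 0.28 in the combination (95% interval 0.04 to 0.51, adjusted p = 0.214), 0.07 in CSF3R_T618I (-0.17 to 0.31, adjusted p = 0.842) and 0.25 in CEBPA_V314VW (0.02 to 0.49, adjusted p = 0.484). Dusp5, with CArG boxes in its promoter window, thus passed in no comparison.

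Spred proteins bind neurofibromin, the Ras GTPase-activating protein, and bring it to the membrane. Spred1 read 8.47, 8.66 and 8.82 in the combination, 8.68, 8.69 and 8.55 in CSF3R_T618I and 8.72, 8.71 and 9.11 in CEBPA_V314VW, against 8.76, 8.79 and 8.81 in Empty Vector. Its differences from Empty Vector were -0.14 in the combination, -0.15 in CSF3R_T618I and 0.06 in CEBPA_V314VW, and their 95% intervals lay within -0.43 and 0.34. Spred1 was the gene of the 9 with the narrowest spread of group means, 8.64 in CSF3R_T618I to 8.85 in CEBPA_V314VW.

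Spred2 encodes the closest relative of SPRED1. It read 9.95, 10.14 and 9.84 in the combination, 10.15, 10.19 and 9.89 in CSF3R_T618I and 10.46, 10.13 and 10.32 in CEBPA_V314VW, against 10.48, 10.28 and 10.45 in Empty Vector. The combination and CSF3R_T618I both lay below Empty Vector on every array. The differences were -0.43 ± 0.13 in the combination (adjusted p = 0.0846) and -0.32 ± 0.13 in CSF3R_T618I (adjusted p = 0.199), and neither passed. With the trended, robust variance estimate the first passed (adjusted p = 0.0126).

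**Figure D2:**
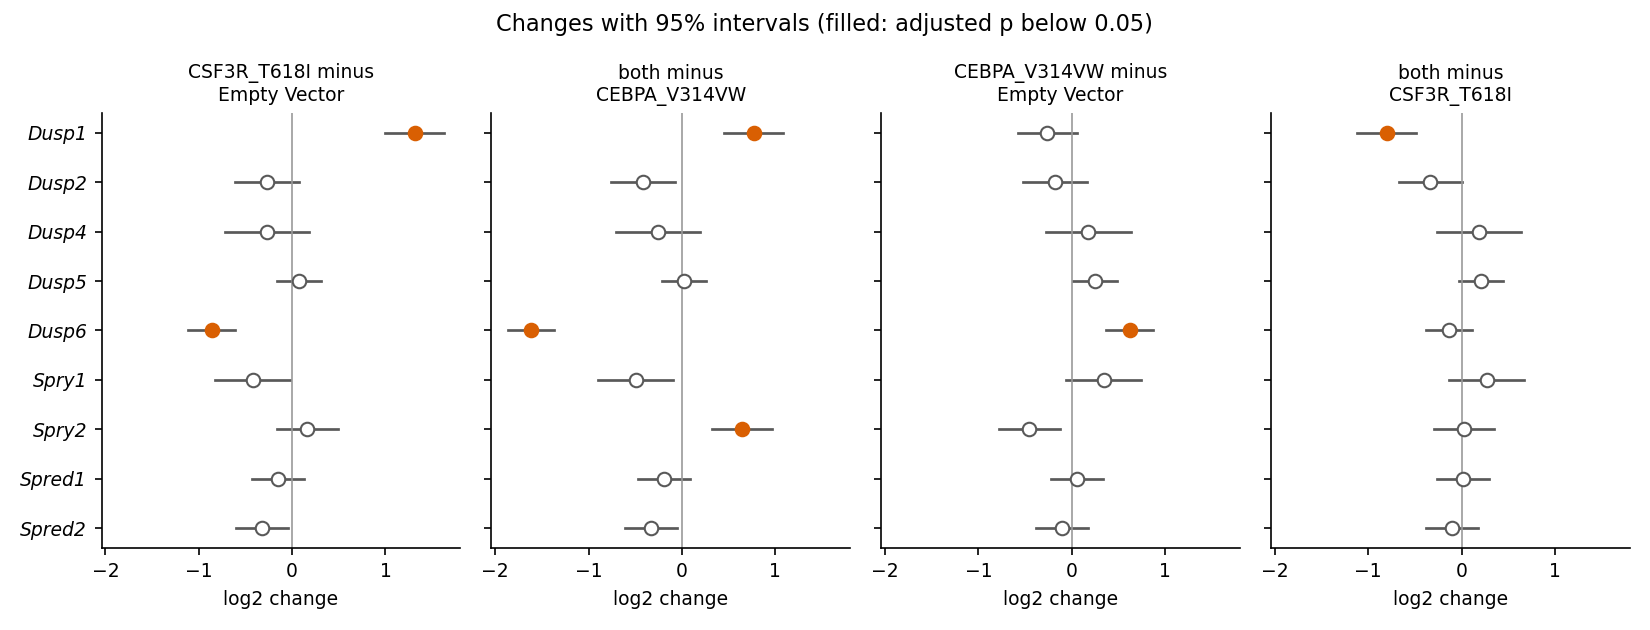
Log2 changes (horizontal axis) of the 9 genes in 4 comparisons, with 95% intervals over 3 arrays a group ("both" is the combination), filled where the adjusted p is below 0.05. The first 2 panels give the change with CSF3R_T618I without and with CEBPA_V314VW, where Dusp1 stands at 1.31 and 0.77 and Dusp6 at -0.86 and -1.62, and the last 2 the change with CEBPA_V314VW, where Dusp6 stands at 0.62 and -0.13.

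Groups did not overlap in 5 of the 9 genes in the combination against Empty Vector (23.1% of all probe sets), in 5 in CSF3R_T618I against Empty Vector (24.1%) and in 3 in CEBPA_V314VW against Empty Vector (16.7%). The corresponding counts were 2 for the combination against CSF3R_T618I (13.7%), 4 against CEBPA_V314VW (22.5%) and 5 for CSF3R_T618I against CEBPA_V314VW (25.9%). The interaction was called in 0 of the 9 genes by limma with Benjamini-Hochberg adjustment, beside 0.324% of all probe sets (0.113% higher, 0.212% lower), and 3 of the 9 had an unadjusted p below 0.05 (Dusp6, Dusp1 and Spry2), as did 6% of all probe sets. By array quality weights and by the trended, robust estimate 1 of 9 passed, Dusp6 in each.

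The ERK-induced transcripts outside the 9, a list of immediate early and later targets, also ran both ways. Of 14 measured in CSF3R_T618I against Empty Vector, 4 rose, 1 fell and 9 did not pass, with a median log2 change of 0.19 (-0.01 over all probe sets). The counts of this and all later lists stand beside the shares of all probe sets called against Empty Vector. These were 6.37% in CSF3R_T618I, 5.45% in the combination and 1.97% in CEBPA_V314VW. The zinc finger factor gene Egr1 read 9.63, 9.80 and 9.31 in CSF3R_T618I, against 7.25, 6.63 and 7.02 in Empty Vector, and was 6.13-fold higher (2.62 ± 0.22, adjusted p = 6.76e-06). Ier3, an early response gene, was 2.52-fold higher, Fos, a subunit of AP-1, 2.10-fold and Ier2, an early response gene, 1.79-fold, each with no overlap between CSF3R_T618I and Empty Vector.

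Etv5, an ETS factor gene that like Dusp6 is a well-known transcript of the fibroblast growth factor and ERK route, fell in the same comparison. It read 8.03, 8.26 and 8.49 in the combination and 7.88, 7.70 and 7.67 in CSF3R_T618I, against 9.72, 9.64 and 9.74 in CEBPA_V314VW and 8.82, 8.87 and 9.14 in Empty Vector. The order of the groups without CSF3R_T618I was that of Dusp6, and no 2 groups overlapped. Etv5 changed by -1.19 ± 0.13 in CSF3R_T618I (adjusted p = 7.18e-05), by -0.68 ± 0.13 in the combination (0.00665) and by 0.76 ± 0.13 in CEBPA_V314VW (0.00732), each against Empty Vector. Its relative Etv4 did not pass against Empty Vector and was 1.42-fold lower in CSF3R_T618I than in CEBPA_V314VW (adjusted p = 0.0174).

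In the combination against Empty Vector, 3 of the 14 transcripts rose (Egr1 by 1.92, Fos by 1.36 and Ier3 by 1.25 on the log2 scale), 1 fell (Etv5) and 10 did not pass. In CEBPA_V314VW against Empty Vector, Etv5 rose and Fosl1, an AP-1 subunit, fell (-0.56), while 12 did not pass. None of the 14 passed between the combination and CSF3R_T618I by limma. Egr1 stood at -0.70 (adjusted p = 0.223) and Ier2 at -0.46 (adjusted p = 0.0888) in that comparison, where Dusp1 stood at -0.80.

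**Figure D3:**
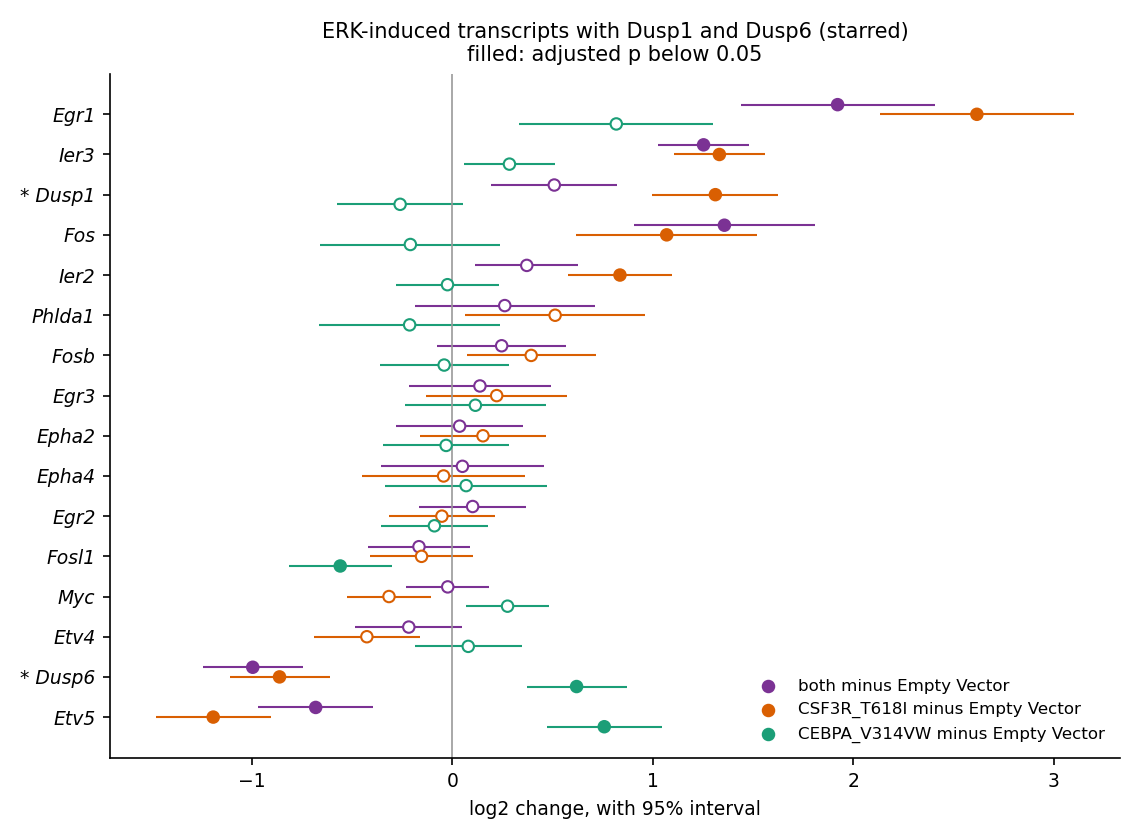
Log2 changes against Empty Vector (horizontal axis, with 95% intervals) of 14 ERK-induced transcripts and, starred, Dusp1 and Dusp6, ordered by the change in CSF3R_T618I ("both" is the combination), filled where the adjusted p is below 0.05. Egr1, Ier3, Fos and Dusp1 lie at the top with CSF3R_T618I changes between 1.07 and 2.62, and Dusp6 and Etv5 at the bottom with -0.86 and -1.19, where CEBPA_V314VW has the opposite sign.

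Of 10 genes that respond to heat or to the handling of cells, 4 rose in CSF3R_T618I against Empty Vector: Zfp36 (2.06), Btg2 (1.46), Junb (1.06) and Jun (0.73). The other 6, which include the heat shock genes Hspa1a, Hspa1b, Hsph1 and Dnajb1, did not pass. The summed level of the 10 on the log2 scale was 12.04 to 12.11 in the combination, 12.14 to 12.18 in CSF3R_T618I, 11.65 to 11.84 in CEBPA_V314VW and 11.78 to 11.85 in Empty Vector. Their part in the Dusp1 result was not tested.

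Cell type markers also differed between the groups, the neutrophil genes in both directions in the combination. Of 6 progenitor genes 4 fell in CSF3R_T618I and 3 in the combination, each against Empty Vector, and 0 of 6 passed in CEBPA_V314VW by limma. The summed level of the 6 was 13.01 to 13.14 in the combination, 12.88 to 12.97 in CSF3R_T618I, 13.83 to 13.87 in CEBPA_V314VW and 13.73 to 13.82 in Empty Vector. Of 10 neutrophil genes, 4 rose and 0 fell in CSF3R_T618I, 4 rose and 3 fell in the combination, and 1 rose and 7 fell in CEBPA_V314VW. Their summed level was 15.51 to 15.62 in the combination, 15.59 to 15.72 in CSF3R_T618I, 14.94 to 15.07 in CEBPA_V314VW and 15.20 to 15.23 in Empty Vector. This sum gives most weight to the most abundant genes. In the combination against CSF3R_T618I, where the sums overlapped, 1 of the 10 rose (Mmp8) and 4 fell (Camp, Cxcr2, Ltf and Ngp). The part of these cell type markers in the Dusp1 and Dusp6 results was not tested. Of markers of other cell types, against Empty Vector, 3 of 7 monocyte genes rose and 1 fell in CSF3R_T618I and in the combination, 1 of 8 mast cell, basophil and eosinophil genes rose and 1 fell in CSF3R_T618I and 0 rose and 1 fell in the combination, 1 of 6 lymphoid genes rose in both, and 0 of 6 erythroid and megakaryocyte genes passed by limma. In CEBPA_V314VW against Empty Vector, the monocyte gene Ly6c2 (-1.11, adjusted p = 0.00715) and the basophil protease gene Mcpt8 (-1.20, adjusted p = 0.00893) fell, and no other gene of these 4 lists passed. In a bulk sample, fewer cells of a type and less RNA per cell cannot be told apart.

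Other genes of the inhibitor families were read from lists. Of 5 other MAP kinase phosphatase genes, Dusp16 and Dusp10, whose products act on JNK and p38, rose in CSF3R_T618I against Empty Vector, by 0.94 ± 0.14 (adjusted p = 0.000795) and 0.69 ± 0.12 (adjusted p = 0.00272), and 3 did not pass. Dusp16 also rose in the combination (0.68 ± 0.14, adjusted p = 0.0091). Dusp16 read 6.63, 7.05 and 6.79 in the combination and 7.09, 7.24 and 6.92 in CSF3R_T618I, against 6.46, 6.53 and 6.81 in CEBPA_V314VW and 6.25, 6.11 and 6.05 in Empty Vector. Every array with a mutant gene lay above all Empty Vector arrays. In CEBPA_V314VW against Empty Vector Dusp16 was not called, and 16.7% of all probe sets did not overlap there. Of the 3 remaining Sprouty and Spred genes, Spry3 was not above background on all 12 arrays, and Spry4 and Spred3 were called in none of the comparisons.

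Among 15 further inhibitors of Ras and ERK, 1 rose and 1 fell in CSF3R_T618I against Empty Vector: the phosphatase gene Ptpn6 (0.54 ± 0.10, adjusted p = 0.00554) and the RAF inhibitor gene Pebp1 (-0.39 ± 0.11, adjusted p = 0.049). Errfi1, 1 of the 15, was above background on no array. Nf1, which encodes neurofibromin, was 1.72-fold lower in CSF3R_T618I than in CEBPA_V314VW (-0.78 ± 0.18, adjusted p = 0.0125). It was 1 of 3 inhibitors lower there beside 5 higher, where 10.7% of all probe sets were called. In the combination and in CEBPA_V314VW against Empty Vector, 0 of 15 passed in limma by the adjusted p.

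Of the cascade itself 15 genes were analysed here. Against Empty Vector, 2 rose and 1 fell in CSF3R_T618I and 2 rose and 2 fell in the combination. Rasgrp4, a Ras exchange factor gene of myeloid cells, was 6.69-fold higher in CSF3R_T618I and 6.82-fold higher in the combination, and Ksr1, which encodes a scaffold for RAF, MEK and ERK, 2.23-fold and 1.57-fold higher. The adaptor gene Gab1 was 2.04-fold lower in the combination than in Empty Vector (-1.03 ± 0.18, adjusted p = 0.00273). Its mean in the combination, 5.24, lay close to the background controls of those arrays (5.09, 4.99 and 5.27), so the size of this change is uncertain. Of 8 stress kinase genes measured, Mapk13, a p38 gene, rose in CSF3R_T618I (0.87 ± 0.09) and in the combination (0.59 ± 0.09), and Map2k6, a p38 activator gene, was 1.82-fold lower in the combination (-0.86 ± 0.15, adjusted p = 0.00313).

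The patterns of the 9 genes over the 12 arrays were compared with each other and with all other named genes by Pearson's r, which mixes differences between groups with the spread within them and is given as a description. Dusp6 ran closest to Spred2 (r = 0.756) and Spry1 (0.682) among the 9 and opposite to Spry2 (-0.839) and Dusp1 (-0.785). Dusp4 ran closest to Spry1 (0.818), and Dusp1 to Spry2 (0.608). Of all 19504 other named genes, the 3 nearest to Dusp6 were Arhgap6 (0.98), Bphl (0.97) and Dmwd (0.97), and the 3 nearest to Dusp1 were Qsox1 (0.978), Nos2 (0.972) and Mfsd2a (0.971). The nearest to Spry2 were Aldh4a1 (0.945), Pgap6 (0.931) and Vmn2r97 (0.92), to Spry1 Prdx4 (0.944), Ep400 (0.939) and Atad3a (0.938), and to Dusp2 Tada3 (0.89), Lrwd1 (0.888) and Eif3i (0.876).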

How the data were processed

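Total RNA (100 ng) of 12 samples was hybridised to the Clariom S Mouse chip. Deposited were log2 levels per probe set, which the authors made with RMA in Affymetrix Expression Console, per the submitters' processing notes. RMA settings and the annotation build are not given in the sources used here. No scaling was added, and 6640 control probe sets were left out. Gene numbers in the probe set names were matched to a RefSeq table (GRCm38.p6), which named 19572 of 22206 gene probe sets.

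Group means were fitted over the 12 arrays in limma 3.58.1 (R 4.3.3), and 6 pairwise differences and the interaction were tested, each with Benjamini-Hochberg adjustment over 22206 values. Alternatives changed the scaling, filter, weights, variance model, test, fold limit or arrays, and the code was tested on simulated data. The changed test was an unpaired Student's t-test, called the methods' t-test below. The study's methods name it for data in general, while its array differential expression was run in Transcript Analysis Console. The members, gene lists and motifs were chosen with earlier results of these data known. Besides the members, the rule named Csf3r, Cebpa, up to 4 called genes per pathway list and comparison with the largest change, and the 3 genes nearest in pattern. Etv4, Spry3, Spry4, Spred3, the uncalled stress genes, and Egr1 and Ier2 where they did not pass, and the named cell type markers with values, were chosen after their values were seen.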

Additional observations from a re-analysis of the deposited data

Results flagged for a closer look

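Among the 9 inhibitors and the pathway lists, 1 gene had a CSF3R_T618I effect that differed with and without CEBPA_V314VW in the test of the interaction. Socs2, a feedback inhibitor gene of the JAK-STAT branch, averaged 7.98 in the combination and 6.80 in CSF3R_T618I, against 9.26 in CEBPA_V314VW and 6.18 in Empty Vector (log2, n = 3 arrays each). CSF3R_T618I changed it by -1.28 in the presence of CEBPA_V314VW and by 0.61 without it, an interaction of -1.90 ± 0.21 (SE, limma, adjusted p = 0.00178). Of the cell type marker lists, 3 genes also passed this test: the neutrophil collagenase gene Mmp8 (-4.50, adjusted p = 8.11e-08), the calprotectin subunit gene S100a8 (1.91, adjusted p = 0.0053) and the monocyte gene Ly6c2 (1.67, adjusted p = 0.0227).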

How the results depend on the processing

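The number of the 9 genes called moved as follows, with the cause not tested except where the alternative itself sets a stricter limit. In the combination against Empty Vector, 2 were called, 1 with median centring, 1 with the compared groups alone, 1 by the methods' t-test, 3 with quantile normalisation, dim probe sets left out or array weights, 4 with the trended, robust variance, 0 with the 2-fold limit added, and 1 to 3 when 1 array was left out. In CSF3R_T618I against Empty Vector, 2 were called, 3 with array weights, 3 without both arrays that stood apart, 1 with the 2-fold limit and 2 whichever array was left out. In CEBPA_V314VW against Empty Vector, 1 was called, 0 by the t-test, 0 with the 2-fold limit and 0 to 1 with 1 array left out. In the combination against CSF3R_T618I, 1 was called, 0 by the t-test, 0 without both arrays that stood apart, 0 with the 2-fold limit and 0 to 1 with 1 array left out. In the combination against CEBPA_V314VW, 3 were called, 4 with array weights, 2 with the compared groups alone, 1 by the t-test, 1 with the 2-fold limit and 2 to 3 with 1 array left out. In CSF3R_T618I against CEBPA_V314VW, 4 were called, 5 with array weights, 2 by the t-test, 2 with the 2-fold limit and 2 to 4 with 1 array left out. The interaction had 0 calls, 1 with array weights, 1 with the trended, robust variance and 0 whichever array was left out, and 3 genes at an unadjusted p below 0.05.

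In the order of comparisons above without the interaction, the methods' t-test gave 5, 4, 3, 2, 4 and 4 of the 9 genes at an unadjusted p below 0.05, beside 15.4%, 15.9%, 10.7%, 8.35%, 15.3% and 18.7% of all probe sets. After Benjamini-Hochberg adjustment it gave 1, 2, 0, 0, 1 and 2, beside 2.07%, 3.07%, 0.356%, 0.018%, 2.34% and 5.49%, so that only 4 of 22206 probe sets passed in the combination against CSF3R_T618I. Dusp6 kept its call against Empty Vector in CSF3R_T618I and in the combination under all 22 alternatives. The 2-fold limit, which is not counted among the 22, was passed in neither.

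The replicate letters were shared between groups, but arrays with the same letter did not deviate together (r between -0.252 and 0.169, 4 of 18 pairs above 0.1, and 3 of 12 arrays correlated best with their own letter). With the replicate block, 3 genes were called in the combination against Empty Vector, where Dusp1 passed (0.51, adjusted p = 0.0495), and the calls of the 9 genes changed in no other comparison.

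Changes of sign arose in uncalled differences near 0. With 1 array left out, Dusp4 ranged from -0.17 to 0.058 in the combination against Empty Vector, Spred1 from -0.073 to 0.13 in CEBPA_V314VW against Empty Vector, and, in the combination against CSF3R_T618I, Spry2 from -0.13 to 0.16 and Spred1 from -0.068 to 0.10. Dusp5 ranged from -0.056 to 0.11 in the combination against CEBPA_V314VW and Dusp2 from -0.18 to 0.063 in CSF3R_T618I against CEBPA_V314VW. The interaction ranged from -0.17 to 0.23 for Dusp4, -0.13 to 0.037 for Dusp5, -0.26 to 0.11 for Spry1, -0.13 to 0.087 for Spred1 and -0.10 to 0.074 for Spred2. With array weights and without both arrays that stood apart, Spry2 in the combination against CSF3R_T618I was -0.14 and -0.16 and Spred1 -0.067 and -0.11. Without both arrays, Dusp5 in the combination against CEBPA_V314VW was -0.0063. The Spred2 interaction was 0.013 with median centring and 0.0067 with quantile normalisation.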

Other observations

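Receptors that feed Ras were read beside the feedback inhibitors. Of 7 receptor genes, among them Csf3r, whose probe set may read the vector transcript, 4 rose and 1 fell in CSF3R_T618I against Empty Vector, 2 rose and 1 fell in the combination, and 0 rose and 2 fell in CEBPA_V314VW. Kit, the stem cell factor receptor gene, was 3.19-fold lower in CSF3R_T618I and 3.37-fold lower in the combination (adjusted p = 4.61e-07 and 3.70e-07, limma). It read 9.82, 9.70 and 9.83 in the combination and 9.91, 9.84 and 9.85 in CSF3R_T618I, against 11.26, 11.43 and 11.37 in CEBPA_V314VW and 11.44, 11.47 and 11.70 in Empty Vector. As for Dusp6, all 6 arrays with CSF3R_T618I lay below the 6 without, but Kit did not pass in CEBPA_V314VW against Empty Vector. Csf1r, the receptor gene for M-CSF, was 2.51-fold higher in CSF3R_T618I and 1.83-fold higher in the combination, and Csf2rb, the shared beta chain gene for GM-CSF and interleukin-3, 1.75-fold and 1.87-fold higher. Csf2ra, the GM-CSF receptor alpha chain gene, was 2.40-fold lower in CEBPA_V314VW than in Empty Vector (-1.26 ± 0.12, adjusted p = 7.95e-05).

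Feedback inhibitor genes of the parallel JAK-STAT branch numbered 4. Against Empty Vector, 3 rose in CSF3R_T618I (Socs3 by 1.36, Cish by 1.34 and Socs2 by 0.61 on the log2 scale), 3 in the combination (Socs2 by 1.80, Socs3 by 1.12 and Socs1 by 0.76) and 1 in CEBPA_V314VW (Socs2 by 3.08).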
